A study of Mus musculus with 12 samples.

Results

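The Myc, Max and Mxd family was followed in mouse ESCs (pluripotent embryonic stem cells kept in culture) through 10 genes: Myc, Mycn, Mycl, Max, Mxd1, Mxd3, Mxd4, Mxi1, Mnt and Mga. They were chosen by name as the Myc network, and all 10 were found among 23496 genes of the RNA-seq table. The knockout group carried the genotype Tfcp2l1 knockout, Tfcp2l1 being a grainyhead-like transcription factor known from naive pluripotency, and was grown in 2i. This serum-free medium held 3 µM CHIR99021, which inhibits GSK3, 1 µM PD0325901, which inhibits MEK, and LIF at 1000 units/mL. Wild-type ESCs were grown in the same 2i medium, or with 15% serum of fetal calves (FBS) plus 1000 units/mL LIF and neither inhibitor. Each of the 3 groups held 4 libraries. The labels name no ESC line, clone or knockout allele, and do not say whether replicates are separate cultures. The p-values therefore reflect library-to-library spread alone, which may be technical.

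Proteins of this family bind DNA as pairs through a basic helix-loop-helix leucine zipper. Max is the shared partner: Myc, Mycn or Mycl paired with Max activate transcription at E-boxes, while Mxd1, Mxi1, Mxd3, Mxd4 and Mnt paired with Max recruit the SIN3 corepressor to the same kind of site. Mga pairs with Max inside a polycomb complex named PRC1.6, which keeps germline genes silent in mouse ESCs. In these cells Myc is known as a target of LIF and STAT3 signalling and Mycn as an abundant paralog, and GSK3 is known to mark Myc and Mycn proteins for degradation. RNA levels say nothing of protein stability.

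Levels are FPKM (sequenced fragments scaled to transcript length and library size) as the authors deposited them, summed per gene. FPKM are per length, so levels can be compared between genes, but the number of reads behind a library is unknown. The FPKM of a library summed to between 347772 and 358340. Tfcp2l1 stood at 72.0 to 84.7 FPKM in the knockout, 112.3 to 143.2 in wild type in 2i and 25.8 to 37.1 in FBS, so the knockout libraries still held the transcript, and whole-transcript FPKM cannot show the loss of single exons. All 10 ESC markers checked, among them Pou5f1, Sox2 and Esrrb, averaged at least 29.8 FPKM in every group, but 6 of them fell and 1 rose in the knockout, and 6 were higher and 1 lower in 2i than in FBS. Nanog, for example, averaged 389.7 ± 14.1 FPKM in the knockout, 578.4 ± 23.7 in wild type in 2i and 212.0 ± 10.2 in FBS. Fibroblast markers were not at 0: their 20 genes summed to 1048.0 to 1569.3 FPKM in the knockout, 971.8 to 1150.7 in wild type in 2i and 463.1 to 577.0 in FBS. Of these 20, 17 rose and 1 fell in the knockout, and 14 were higher and 4 lower in 2i than in FBS. Sparc, the largest, did not pass in the knockout, at 391.2 FPKM against 441.7 in wild type in 2i. Fn1, the gene that fell, was at 204.7 against 245.4, and Col1a1, among those that rose, at 130.7 against 69.5. Dcn and Lum, both counted as higher in 2i, lay under 1 FPKM in every FBS library. For comparison with each marker count given here, 24.0% of all genes tested rose and 21.4% fell in the knockout. Between media, 37.1% of all genes tested were higher and 35.3% lower in 2i than in FBS. The 7 primed epiblast markers summed to 39.3 to 47.5 FPKM in the knockout, 21.9 to 25.9 in wild type in 2i and 206.3 to 264.7 in FBS. Sums of 8 trophoblast markers were 51.2 to 56.1, 32.7 to 47.0 and 156.4 to 181.7 FPKM in the same order, those of 10 endoderm markers 17.2 to 22.4, 17.3 to 23.1 and 31.7 to 41.8, and those of 8 neural markers 31.8 to 42.0, 10.2 to 26.0 and 37.5 to 63.3. Of the 8 neural markers 4 were tested, Neurog1, Map2, Nes and Tubb3, and all 4 rose in the knockout and were lower in 2i than in FBS. Neurog1 averaged 7.34 ± 1.70 FPKM in the knockout, 0.477 ± 0.188 in wild type in 2i and 1.51 ± 1.01 in FBS. Dcx, another neural marker, and the endoderm markers Ttr and Afp were at or near 0 in every group. Of the markers tested in the knockout, 3 of 7 primed epiblast genes rose, 4 of 7 trophoblast genes rose and 2 fell, and 2 of 5 endoderm genes rose and 1 fell. In 2i against FBS 6 primed epiblast, 6 trophoblast and 3 endoderm genes were lower. Fgf5, T, Cdx2, Gata3, Hand1 and Pdgfra also lay under 1 FPKM in every wild-type library in 2i and entered the test through other groups. The part of other cells in the results below was not tested. In bulk RNA, fewer cells of a type and less RNA per cell cannot be told apart.

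Promoter windows from RefSeq (GRCm38.p6), which run from 250 bases before to 50 bases after a transcript start, matched 9 of the 10 genes, all but Myc, in 11 windows. They were searched for the canonical E-box CACGTG, which reads the same on both strands. An E-box was found in the windows of 3 of the 9 genes (33.3%), Max, Mnt and Mxd4, against 8.09% of all 27025 genes with a window. The same windows were searched on both strands for the E2F motif, spelled TTTCCCGC, TTTCGCGC, TTTGCCGC or TTTGGCGC. Only Mycn among the members held it, with 3 matches that begin 183, 179 and 168 bases before the start, the first 2 overlapping, against 2.60% of all genes. A direct repeat of CCAG spaced by 6 bases, a strict form of the motif of the Tfcp2l1 family, was found for 0 of the 9 genes and for 3.94% of all genes. At so low a share, 0 of 9 cannot set the members apart from all genes. A match describes letters and is not evidence of binding. Printed below are the 250 bases before the start, without the 50 after it, for the gene lowest in 2i relative to FBS (Mycn) and the gene with the smaller adjusted p of the 2 that rose in the knockout (Mnt), and the E-box surroundings of Max and Mxd4, all 5′ to 3′ on the gene's strand, with the matched motifs in capitals. Mycn is on the minus strand (chr12:12941837-12942086), Mnt on the plus strand (chr11:74830674-74830923), Max on the minus strand (chr12:76962229-76962278) and Mxd4 on the minus strand (chr5:34187903-34187956).
Mycn: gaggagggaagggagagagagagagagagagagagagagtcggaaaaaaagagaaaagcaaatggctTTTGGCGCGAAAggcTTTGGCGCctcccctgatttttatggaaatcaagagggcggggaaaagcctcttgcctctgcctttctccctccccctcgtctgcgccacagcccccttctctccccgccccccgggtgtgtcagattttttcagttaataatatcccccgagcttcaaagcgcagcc
Mnt: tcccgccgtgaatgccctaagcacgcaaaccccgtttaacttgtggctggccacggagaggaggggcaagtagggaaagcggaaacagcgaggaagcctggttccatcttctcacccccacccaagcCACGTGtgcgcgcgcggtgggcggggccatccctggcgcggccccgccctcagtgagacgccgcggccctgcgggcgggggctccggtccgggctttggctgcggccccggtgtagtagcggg
Max: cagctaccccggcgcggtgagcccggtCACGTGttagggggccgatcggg
Mxd4: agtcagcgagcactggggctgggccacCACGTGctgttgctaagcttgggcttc

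The E-box of Max begins 3 bases before the transcript start and spans it, that of Mnt begins 123 bases before the start and that of Mxd4 219 bases before it.

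Fewer of the 10 genes passed the test in the knockout comparison than between media, as was the case over all genes tested. In the knockout against wild type in 2i, which the series compared to find transcripts regulated by Tfcp2l1, Myc and Mnt rose and the other 8 genes did not pass the test. This is 2 of 10 genes, against 45.3% of 12329 genes tested (24.0% rose and 21.4% fell), and the groups did not overlap for 3 of 10 (Myc, Max and Mnt), against 44.1% of all genes. In wild-type ESCs in 2i against FBS, Mycn, Myc, Max and Mga were lower, Mxd3 and Mxd1 were higher, and Mycl, Mxd4, Mxi1 and Mnt did not pass. This is 6 of 10 genes, against 72.4% of all genes tested (37.1% higher and 35.3% lower), and the media did not overlap for 4 of 10 (Myc, Mycn, Max and Mxd3), against 62.5%. The median log2 difference of the 10 genes was 0.06 in the knockout and 0.02 between media, against 0.01 for all genes in both comparisons. All differences were taken on log2(FPKM + 1), where changes of low genes come out too small, and were tested with limma over all genes, two-sided, with Benjamini-Hochberg adjustment. Both comparisons use the same 4 wild-type libraries in 2i.

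**Figure D1:**
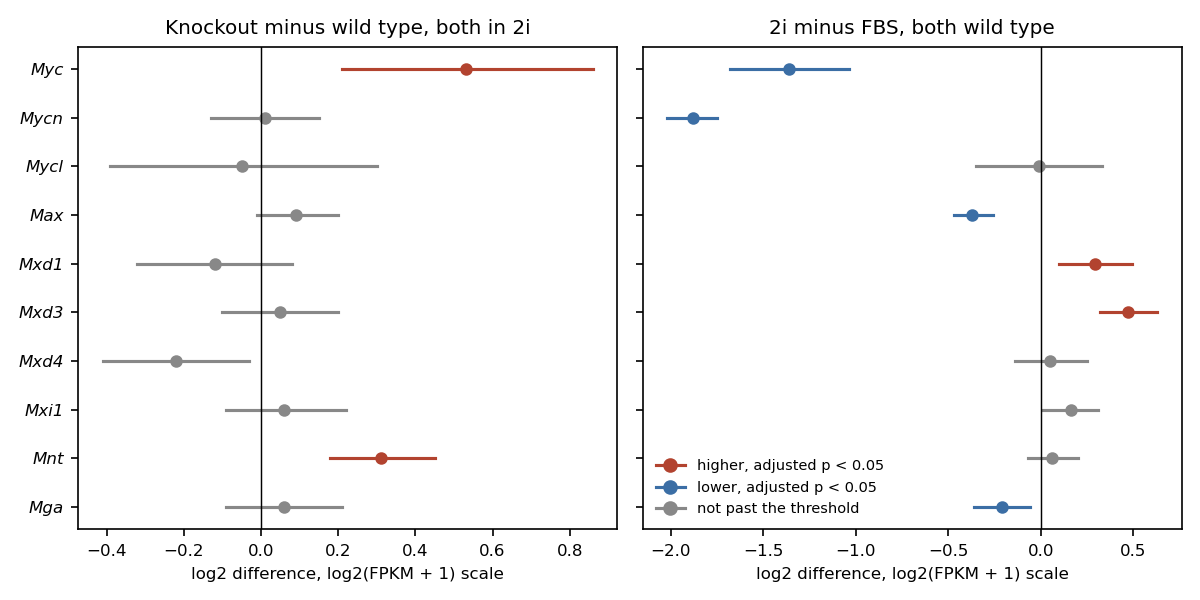
Log2 difference (points) with its 95% confidence interval (lines) for the 10 genes, knockout minus wild type in 2i on the left and 2i minus FBS in wild type on the right, coloured by limma's adjusted p. In the knockout only Myc (0.53) and Mnt (0.31) lie past the threshold, and between media Mycn (-1.88) and Myc (-1.36) lie farthest from 0.

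Myc (mm9, chr15:61816896-61821916), the founding member and a growth-promoting activator, was measured through 2 RefSeq entries. It stood at 7.95, 8.29, 7.30 and 6.96 FPKM in the 4 knockout libraries, at 4.43, 3.88, 6.82 and 5.01 in wild type in 2i, and at 16.0, 14.7, 10.5 and 16.6 FPKM in FBS. The 4 knockout values lay above all 4 wild-type values in 2i, with replicate 3 of the wild type close below them, and all 8 libraries in 2i lay below all 4 in FBS. Myc thus averaged 7.62 ± 0.604 FPKM in the knockout, 5.03 ± 1.27 in wild type in 2i and 14.4 ± 2.75 in FBS (SD, n = 4 each). The rise in the knockout was 1.51-fold in FPKM (log2 difference 0.53, SE 0.15, limma adjusted p = 0.0112). The level in wild type in 2i was 0.348 times that in FBS (log2 difference -1.36, SE 0.15, limma adjusted p = 3.31e-06). Myc therefore moved towards its FBS level in the knockout and remained below it. The separation of knockout and wild type in 2i was that of the summed entries. In the higher entry alone they overlapped, at 4.59 to 6.07 FPKM in the knockout and 2.32 to 5.01 in wild type. The other entry's share ran from 0.00296% to 47.7% within wild type in 2i, and did not differ in the knockout (exact permutation p = 0.8286).

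Mycn (NM_008709; mm9, chr12:12942899-12948642), the paralog known for its role in embryonic progenitors, showed no such rise. It stood at 26.4, 23.9, 25.6 and 27.8 FPKM in the knockout, at 25.1, 27.1, 27.2 and 23.4 in wild type in 2i, and at 89.0, 104.5, 100.4 and 96.6 FPKM in FBS. Knockout and wild type in 2i overlapped, and every FBS library lay far above every library in 2i. The log2 difference between knockout and wild type was 0.01, with a 95% confidence interval of -0.13 to 0.15 (limma adjusted p = 0.883). Between media it was -1.88 (SE 0.06, limma adjusted p = 1.33e-10), with means of 25.7 ± 1.8 FPKM in 2i and 97.6 ± 6.59 in FBS, so wild type in 2i held 0.263 times the FBS level. The authors' bounds around a single Mycn value reached 2.68% to 6.53% of it to either side.

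Mycl (NM_008506; mm9, chr4:122673342-122679723), the third paralog, stood at 6.86, 6.04, 7.81 and 7.61 FPKM in the knockout, at 6.72, 5.06, 10.4 and 7.96 in wild type in 2i, and at 6.93, 6.32, 8.58 and 7.83 in FBS. The 3 groups overlapped, and the widest spread was within wild type in 2i, where replicate 3 was highest. The log2 difference was -0.05 in the knockout (95% confidence interval -0.39 to 0.30, limma adjusted p = 0.830) and -0.01 between media (-0.35 to 0.33, adjusted p = 0.959).

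**Figure D2:**
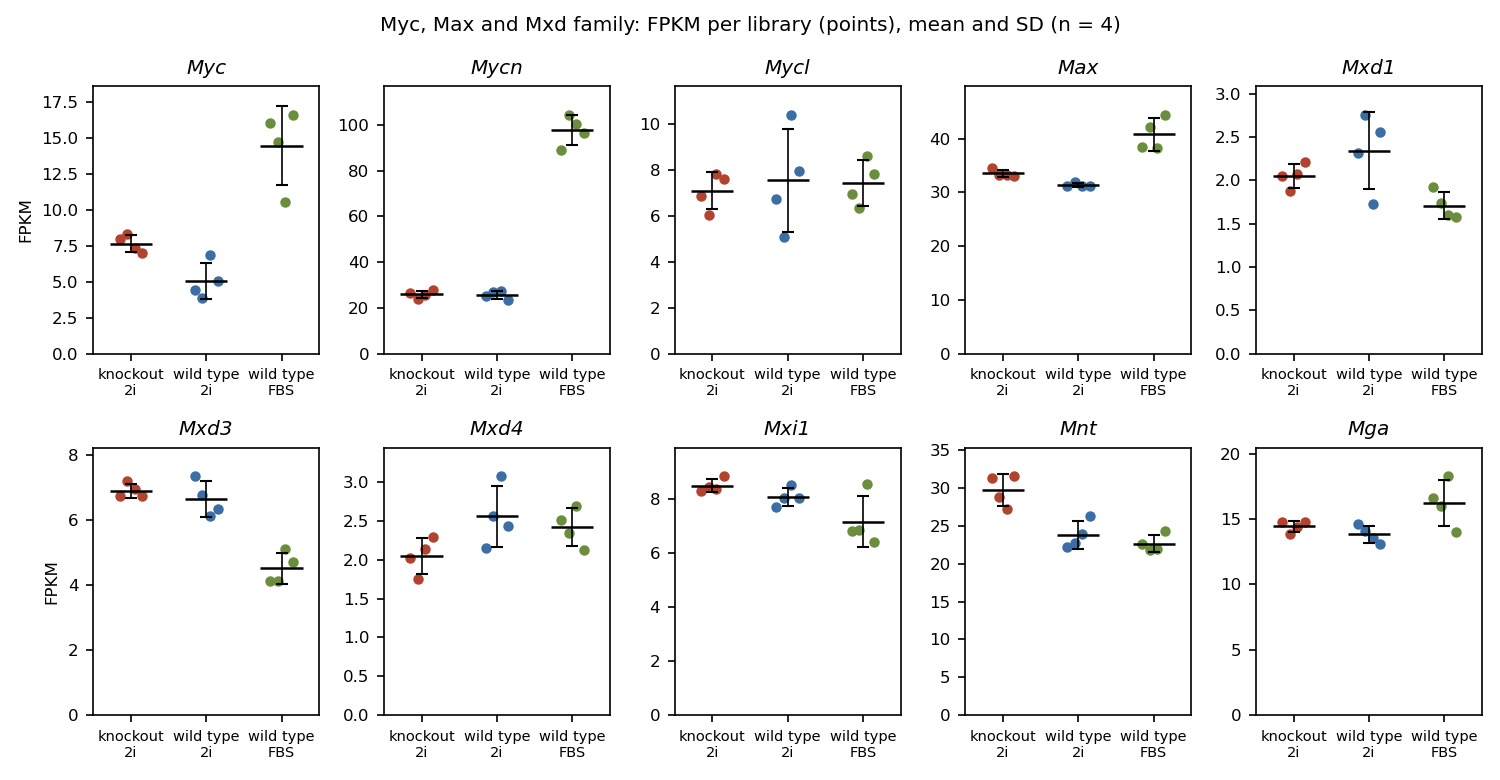
FPKM of each of the 10 genes in every library (points), with the mean (horizontal line) and SD (error bar) of each group of 4, knockout in 2i, wild type in 2i and wild type in FBS from left to right, each panel on its own scale from 0. Mycn separates FBS (89.0 to 104.5 FPKM) from both groups in 2i (23.4 to 27.8 FPKM), while Mycl overlaps in all 3 groups.

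Summed over Myc, Mycn and Mycl, the FPKM came to 40.7 ± 1.75 in the knockout, 38.3 ± 4.09 in wild type in 2i and 119.5 ± 5.64 in FBS (SD, n = 4 each, described without a test). Mycn supplied most of this sum in every group. Its share was 62.5% to 65.7% in the knockout, 61.2% to 75.2% in wild type in 2i and 79.5% to 84.0% in FBS. The share of Myc was 16.4% to 21.7% in the knockout, 10.8% to 15.3% in wild type in 2i and 8.79% to 14.3% in FBS, so the knockout libraries lay above the rest. Mycl gave 15.8% to 19.2% of the sum in the knockout and 14.0% to 23.4% in wild type in 2i, against 5.04% to 7.18% in FBS, where its own level did not differ past the threshold from that in 2i.

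Max (mm9, chr12:78038256-78063235), the obligate partner, was the most abundant of the 10 genes in 2i and came second to Mycn in FBS. It stood at 34.6, 33.3, 33.3 and 33.0 FPKM in the knockout, at 31.2, 31.9, 31.2 and 31.3 in wild type in 2i, and at 38.5, 42.2, 38.2 and 44.5 in FBS. None of the groups overlapped, and the spread was narrowest among wild-type libraries in 2i. The difference in the knockout did not pass (log2 difference 0.09, SE 0.05, limma adjusted p = 0.129), though it did when the 8 libraries in 2i were fitted alone (0.0388) or with array weights (0.0329). Against FBS, Max was lower in 2i (log2 difference -0.37, SE 0.05, limma adjusted p = 1.62e-05). Max FPKM per FPKM of the Myc-type sum averaged 0.827 ± 0.0393 in the knockout, 0.826 ± 0.0836 in wild type in 2i and 0.342 ± 0.0200 in FBS.

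Part of the Max difference between media lay in 1 of its 2 RefSeq entries, which share a locus and whose reads were divided by Cufflinks in a way not given in the sources used here. Entry NM_008558 took 25.1%, 22.5%, 21.3% and 19.7% of Max FPKM in the knockout, 9.41%, 14.2%, 15.9% and 19.2% in wild type in 2i, and 32.5%, 27.3%, 30.5% and 17.6% in FBS. The knockout and wild-type shares did not overlap, by the narrowest margin, and those of wild type in 2i and FBS overlapped through FBS replicate 4. The mean share was 7.47 percentage points higher in the knockout than in wild type (p = 0.0286 by a two-sided exact permutation test, which can go no lower with 4 against 4, and 0.1143 adjusted over 8 such tests). It was 12.3 points lower in wild type in 2i than in FBS (exact permutation p = 0.0571, adjusted 0.1524). With only the higher entry of each gene counted, Max no longer passed between media (log2 difference -0.15, limma adjusted p = 0.148), and its sign in the knockout turned to -0.03 (adjusted p = 0.783).

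**Figure D3:**
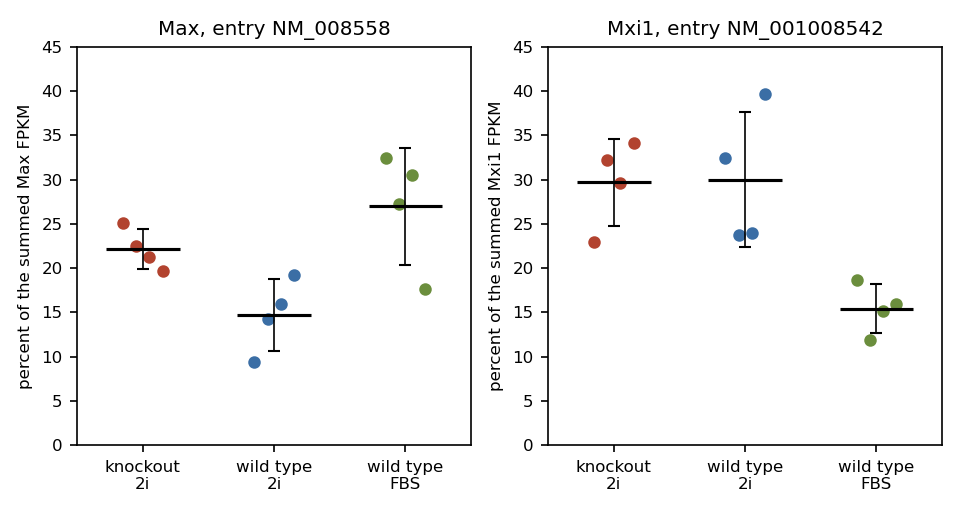
Percent of a gene's summed FPKM assigned to 1 RefSeq entry in each library (points), with the mean (line) and SD (error bar) of each group of 4, for Max entry NM_008558 and Mxi1 entry NM_001008542. The Max share is 19.7% to 25.1% in the knockout and 9.41% to 19.2% in wild type in 2i, and the Mxi1 share is 23.8% to 39.7% in wild type in 2i and 11.9% to 18.7% in FBS.

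Among the repressors, Mnt (NM_010813; mm9, chr11:74644426-74659227), a widely expressed Max partner that antagonizes Myc, was the most abundant. It stood at 31.4, 28.9, 27.2 and 31.6 FPKM in the knockout, at 22.2, 22.7, 24.0 and 26.3 in wild type in 2i, and at 22.6, 21.8, 22.0 and 24.3 in FBS. All 4 knockout libraries lay above the 8 wild-type libraries, and the wild-type groups overlapped. Mnt rose 1.25-fold in the knockout, with means of 29.8 ± 2.10 FPKM in the knockout and 23.8 ± 1.81 in wild type (log2 difference 0.31, SE 0.06, limma adjusted p = 0.00166). Between media the log2 difference was 0.06, with a 95% confidence interval of -0.07 to 0.20 (adjusted p = 0.369). Its promoter window is 1 of the 3 printed above that hold an E-box.

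Mxd3 (NM_016662; mm9, chr13:55426529-55431091), a repressor known from cycling progenitors, was the Mxd gene that differed most between media. It stood at 6.75, 7.20, 6.96 and 6.75 FPKM in the knockout, at 7.36, 6.79, 6.12 and 6.35 in wild type in 2i, and at 4.14, 4.12, 5.12 and 4.71 in FBS. Every library in 2i lay above every library in FBS, and knockout and wild type overlapped. Mxd3 was 1.47-fold higher in 2i than in FBS (log2 difference 0.47, SE 0.07, limma adjusted p = 5.35e-05), the opposite direction to Mycn and Myc. In the knockout its log2 difference was 0.05, with a 95% confidence interval of -0.10 to 0.20 (adjusted p = 0.585).

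Mxd1 (NM_010751; mm9, chr6:86597039-86619153), a repressor linked to differentiation, was at 2.05, 1.88, 2.07 and 2.21 FPKM in the knockout, at 2.32, 2.76, 1.73 and 2.56 in wild type in 2i, and at 1.92, 1.74, 1.6 and 1.58 in FBS. Replicate 3 of wild type in 2i lay among the FBS libraries and the other 3 lay above them. Mxd1 was higher in 2i than in FBS (log2 difference 0.29, SE 0.09, limma adjusted p = 0.0114). Genes of chromosome 6 shifted together between libraries, with a median offset of -0.110 in that replicate 3 and 0.211 in replicate 4, on the log2 scale. With this offset removed the Mxd1 difference was 0.17 (adjusted p = 0.0433). In the knockout it did not pass (log2 difference -0.12, adjusted p = 0.299), was 0.02 with the offset removed, and passed as a fall without replicate 3 of wild type in 2i (-0.22, adjusted p = 0.0278).

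Mxd4 (NM_010753; mm9, chr5:34519229-34530359), another Mxd repressor, was at 2.03, 1.75, 2.14 and 2.29 FPKM in the knockout, at 2.15, 2.57, 3.08 and 2.44 in wild type in 2i, and at 2.51, 2.35, 2.70 and 2.13 in FBS. The groups overlapped, and the authors' bounds for this gene reached 23.5% to 31.1% of a value to either side, the widest of the 6 genes with a single entry. The log2 difference in the knockout was -0.22 (95% confidence interval -0.41 to -0.03, limma adjusted p = 0.0595), and between media it was 0.05 (-0.14 to 0.25, adjusted p = 0.598). The knockout difference passed as a fall without replicate 1 of wild type in 2i (-0.27, adjusted p = 0.0305), after quantile normalization (0.0219) and without an intensity trend (0.0494).

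Mxi1 (mm9, chr19:53384996-53450300), also called Mxd2, was at 8.30, 8.45, 8.38 and 8.85 FPKM in the knockout, at 7.72, 8.05, 8.51 and 8.05 in wild type in 2i, and at 6.83, 6.86, 8.55 and 6.41 in FBS. FBS replicate 3 lay above all 4 wild-type libraries in 2i and the other 3 FBS libraries lay below them. The log2 difference between media was 0.16 (95% confidence interval 0.01 to 0.31, limma adjusted p = 0.0595), and 0.24 without FBS replicate 3, where it passed (adjusted p = 0.00120), as it did with array weights (0.0394). With only the higher entry counted it was -0.06 (adjusted p = 0.573). In the knockout it was 0.06 (-0.09 to 0.22, adjusted p = 0.486).

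The Mxi1 entries differed in their pattern. Entry NM_001008542 starts 18907 bases upstream of NM_010847. Its share of Mxi1 FPKM was 22.9%, 32.2%, 29.6% and 34.1% in the knockout, 32.5%, 23.8%, 24.0% and 39.7% in wild type in 2i, and 18.7%, 11.9%, 15.2% and 15.9% in FBS. All libraries in 2i lay above all FBS libraries. The mean share was 14.6 percentage points higher in wild type in 2i than in FBS (exact permutation p = 0.0286, again the lowest value possible, adjusted 0.1143). Between knockout and wild type the mean share differed by -0.313 points (exact permutation p = 0.8857). The upstream entry averaged 2.42 ± 0.579 FPKM in wild type in 2i and 1.11 ± 0.228 in FBS, and NM_010847 averaged 5.67 ± 0.761 in 2i and 5.97 ± 0.856 in FBS.

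Mga (mm9, chr2:119722964-119795317), the large Max partner of the PRC1.6 complex, was at 14.8, 13.9, 14.4 and 14.8 FPKM in the knockout, at 14.6, 14.1, 13.6 and 13.1 in wild type in 2i, and at 16.6, 16.0, 18.3 and 14.0 in FBS. FBS replicate 4 lay among the libraries in 2i, the other 3 FBS libraries lay above all of them, and knockout and wild type overlapped. Mga was lower in 2i than in FBS (log2 difference -0.21, SE 0.07, limma adjusted p = 0.0129), with means of 13.8 ± 0.661 FPKM in 2i and 16.2 ± 1.77 in FBS. In the knockout its log2 difference was 0.06, with a 95% confidence interval of -0.09 to 0.21 (adjusted p = 0.497).

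The 4 Mxd genes and Mnt together summed to 49.3 ± 2.23 FPKM in the knockout, 43.4 ± 1.65 in wild type in 2i and 38.5 ± 1.37 in FBS (SD, n = 4 each, described without a test), in 3 ranges that did not overlap. Without Mnt the Mxd sum was 19.5 ± 0.428 FPKM in the knockout, 19.6 ± 0.360 in wild type in 2i and 15.8 ± 1.46 in FBS. Myc-type FPKM per FPKM of Mxd genes and Mnt was 0.795 to 0.870 in the knockout, 0.798 to 1.02 in wild type in 2i and 2.94 to 3.41 in FBS. In FBS, the activators summed to more FPKM than these repressors, and in 2i the sums were similar in size.

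**Figure D4:**
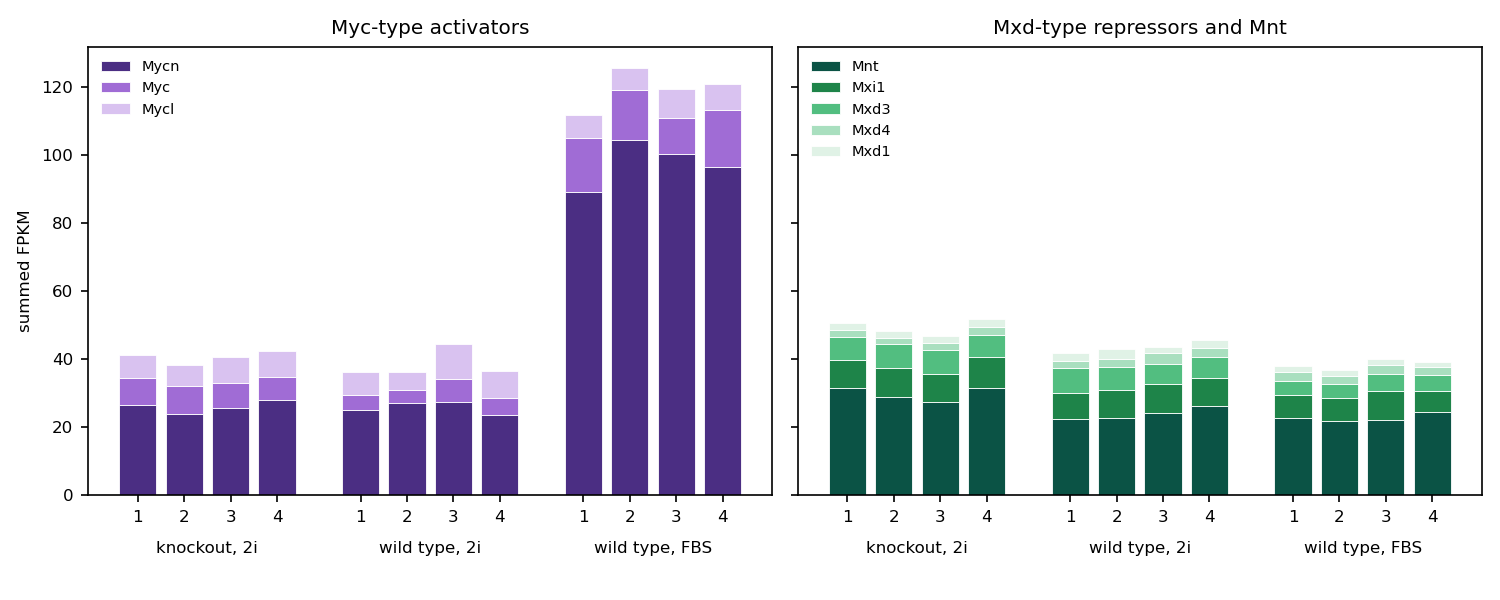
Summed FPKM in each library (bars, replicates 1 to 4 of each group), split by gene, for the Myc-type activators on the left and the Mxd genes with Mnt on the right, on 1 shared scale. The activators sum to 36.1 to 44.4 FPKM in the 8 libraries in 2i and to 112.0 to 125.5 FPKM in FBS, mostly through Mycn, while the repressors stay between 36.8 and 51.7 FPKM.

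The order of levels was similar in the 2 groups in 2i. In the knockout Max led, followed by Mnt and Mycn, whose ranges overlapped, then Mga, Mxi1, Myc, Mycl and Mxd3, with Mxd4 and Mxd1 last. Myc, Mycl and Mxd3 overlapped their neighbours in that order, as did Mxd4 and Mxd1. In wild type in 2i Max again led, Mycn and Mnt overlapped, and Myc came eighth, overlapping Mxd3, Mycl and Mxi1 above it in a chain of neighbours. In FBS Mycn led at 97.6 FPKM, followed by Max at 40.9, Mnt at 22.7 and Mga at 16.2, with Myc next at 14.4 and overlapping Mga. Mycl, Mxi1, Mxd3, Mxd4 and Mxd1 followed, of which Mycl and Mxi1 overlapped.

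Genes with the most similar profile were sought among 8265 tested genes of at least 5 FPKM on average, by the root-mean-square (RMS) difference from the member over the 12 libraries after centring on the log2 scale. Closest to Mycn were Fzd7 (RMS difference 0.094), Kcnk1 (0.163) and Ddr1 (0.163), against an RMS of 0.889 for the Mycn profile itself. Fzd7, a Wnt receptor, averaged 8.38 FPKM in the knockout, 8.33 in wild type in 2i and 33.0 in FBS. Closest to Myc, with an RMS of 0.597 for its own profile, were Tasor2 (0.149), Tom1l1 (0.157) and Myef2 (0.159). For Mycl, whose own profile had an RMS of 0.223, the closest were Acaa2 (0.126), Rcor2 (0.127) and Smoc1 (0.133).

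Textbook Myc targets of the nucleolus and of ribosome assembly were mostly lower in 2i than in FBS. This list and those below were chosen with earlier results of these data known, so their shares are descriptions and not independent support. Of 26 such genes, all tested, 21 were lower, 2 were higher and 3 did not pass, with a median log2 difference of -0.29, against 0.01 for all genes tested, and the 80.8% lower compare with 35.3% of all genes. The nucleolar GTPase Gnl3 averaged 92.3 ± 4.53 FPKM in 2i and 135.6 ± 3.62 in FBS (log2 difference -0.55), and the histone chaperone Npm1 316.0 ± 31.6 FPKM in 2i and 501.8 ± 14.2 in FBS (-0.67). Mrto4 (-0.52) and Wdr43 (-0.41), ribosome assembly factors, were also among the 4 with the smallest adjusted p, and Dkc1, the pseudouridine synthase, did not pass at 97.7 ± 7.84 and 91.9 ± 3.67 FPKM in 2i and FBS. Over all genes 24.0% rose and 21.4% fell in the knockout. Of the 26, 3 rose there (11.5%), 1 fell (3.85%) and 22 did not pass, with a median of 0.06. These were Npm1 (0.21), Wdr43 (0.14) and Utp20 (0.24), a processome subunit, and Rrs1 (-0.15), an assembly factor that fell. Nucleolin, Ncl, did not pass in the knockout at 228.0 ± 7.54 FPKM, against 207.7 ± 23.1 in wild type. Without replicate 2 of wild type in 2i, or without knockout replicate 4, 2 fell. With array weights 7 rose and 3 fell, and 5 rose after quantile normalization or TPM scaling. Promoter windows held an E-box for 5 of 22 of these genes (22.7%), against 8.09% of all genes with a window.

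Myc-activated genes of growth and metabolism were also more often lower than higher in 2i. Of 31 tested, 19 were lower, 5 higher and 7 did not pass, with a median log2 difference of -0.20, and the 61.3% lower compare with 35.3% of all genes. The polyamine enzyme Odc1 averaged 95.0 ± 7.70 FPKM in 2i and 227.9 ± 22.2 in FBS (-1.25), the purine enzyme Gart 96.5 ± 4.60 and 152.8 ± 2.81 (-0.66), the lactate dehydrogenase Ldha 239.2 ± 35.0 and 552.6 ± 37.9 (-1.21), and the translation factor Eif5a 581.3 ± 6.58 and 896.8 ± 59.1 (-0.62). Eif4a1 did not pass, nor did Eif5a in the knockout. In the knockout 5 rose, 8 fell and 18 did not pass, with a median of -0.05. These shares, 16.1% up and 25.8% down, are below and near the 24.0% and 21.4% of all genes. Odc1 rose to 154.6 ± 7.03 FPKM in the knockout, against 95.0 ± 7.70 in wild type (0.70), and Ccnd2, a cyclin on chromosome 6, to 6.50 ± 1.53 against 2.64 ± 0.660 (1.04). The transferrin receptor Tfrc fell to 76.5 ± 3.23 FPKM, against 118.9 ± 6.71 in wild type (-0.63), and the chaperonin Hspe1 to 105.3 ± 4.26 against 140.9 ± 2.06 (-0.42). An E-box was in the windows of 10 of 26 of these genes (38.5%), against 8.09% of all genes with a window.

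Genes known to be repressed by Myc moved both ways. Of 10 tested, 3 were higher and 4 lower in 2i than in FBS, with a median of 0.05. These 30.0% and 40.0% are near the 37.1% and 35.3% of all genes. The cell-cycle inhibitors Cdkn1a (1.8) and Cdkn1b (0.88) were higher in 2i, while the inhibitor Cdkn1c (-2.32) and the stress gene Gadd45a (-2.08) were lower, and Thbs1, a matrix protein, did not pass. In the knockout 5 rose and 1 fell, with a median of 0.45 against 0.01 for all genes. Of all genes 24.0% rose and 21.4% fell, against 50.0% and 10.0% of these 10. Thbs1 averaged 57.3 ± 12.4 FPKM in the knockout and 31.7 ± 7.15 in wild type (0.84), Cebpa 4.07 ± 0.660 and 1.81 ± 0.597 (0.87), Cdkn2b 5.87 ± 0.600 and 3.50 ± 0.594 (0.61) and Cdkn1c 6.70 ± 2.44 and 1.71 ± 0.324 (1.45). Cdkn1a, the highest member, did not pass in the knockout. Thbs1 is also expressed by fibroblasts, of whose 20 markers 17 rose and 1 fell in the knockout. Any part of such cells in the Thbs1 difference was not tested. None of the 7 genes with a window held an E-box, against 8.09% of all genes with a window. So few genes cannot set these shares apart.

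Germline genes known to be silenced by E2f6 and the Mga-Max complex were mostly higher in 2i than in FBS. Of 16 tested, 13 were higher and 3 did not pass, with a median log2 difference of 0.83, and the 81.2% higher compare with 37.1% of all genes. Tuba3b, Slc25a31 and Tex101 lay under 1 FPKM in every FBS library, with FBS means of 0.105, 0.331 and 0.456. They passed the filter of 1 FPKM only through libraries in 2i, so their higher calls, and this share, are partly set by it. The tubulin gene Tuba3a averaged 82.3 ± 11.9 FPKM in 2i and 5.18 ± 0.859 in FBS (3.75), the germ cell RNA-binding gene Dazl 40.5 ± 21.0 and 2.20 ± 0.333 (3.59), Tuba3b 4.50 ± 1.96 and 0.105 ± 0.0299 (2.26), and the cohesin subunit Stag3 11.9 ± 1.36 and 4.51 ± 1.14 (1.24). Tuba3a and Tuba3b are similar copies on chromosome 6, so their reads are uncertain. In the knockout 8 rose, 3 fell and 5 did not pass, with a median of 0.28, and Stag3 did not pass. The 50.0% that rose and 18.8% that fell compare with 24.0% and 21.4% of all genes. Mael, a piRNA pathway gene, rose to 10.3 ± 0.853 FPKM, against 4.97 ± 1.18 in wild type (0.94), and Zcwpw1 to 14.5 ± 0.635 against 8.27 ± 1.77 (0.76), while Tuba3a (-1.31), Dazl (-1.25) and Tuba3b (-1.07) fell. The count of rises was 2 without replicate 2 or 4 of wild type in 2i or without knockout replicate 1, 3 without knockout replicate 2 and 4 without knockout replicate 3. It was 5 with a pseudocount of 0.01, 4 with no filter and 3 with a filter of 5 FPKM, and between media that filter left 4 higher. Low genes, such as Tuba3b and Slc25a31, were not tested under that filter. E-boxes were in the windows of 7 of 15 of these genes (46.7%), against 8.09% of all genes with a window.

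**Figure D5:**
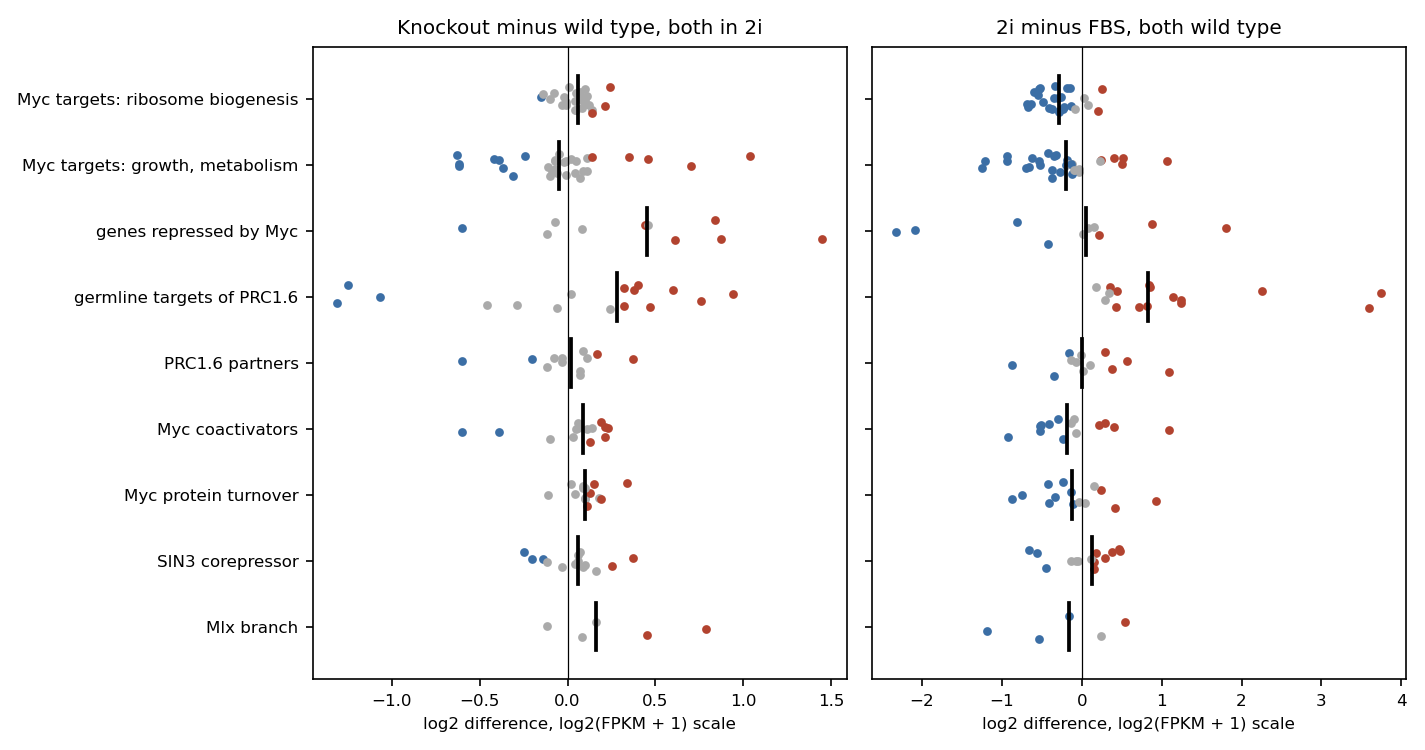
Log2 difference of each gene (points) in 9 lists of the Myc network and its targets, knockout minus wild type in 2i on the left and 2i minus FBS in wild type on the right, with the median of each list as a black bar, red for higher and blue for lower at limma's adjusted p under 0.05, and grey for not past it. Ribosome biogenesis targets lie mostly below 0 between media (median -0.29) and the germline targets above it (median 0.83).

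Of 12 partners of Mga and Max in PRC1.6, 4 were higher and 3 lower in 2i, with a median of 0.00, and 2 rose and 2 fell in the knockout, with a median of 0.02. The shares between media, 33.3% higher and 25.0% lower, lay below those of all genes (37.1% and 35.3%), as did those in the knockout, 16.7% each way against 24.0% and 21.4%. The WD-repeat protein Wdr5, also a Myc cofactor, averaged 101.0 ± 4.66 FPKM in the knockout, 153.3 ± 7.45 in wild type in 2i and 71.4 ± 3.79 in FBS, so it fell in the knockout (-0.60) and was higher in 2i than in FBS (1.09). Pcgf6, the ring finger subunit that defines this complex, averaged 32.1 ± 1.39 FPKM in the knockout, 28.6 ± 1.46 in wild type in 2i and 36.6 ± 0.556 in FBS, so it rose in the knockout (0.17) and was lower in 2i than in FBS (-0.35). The E2F partner Tfdp1 was lower in 2i (-0.87) and the ubiquitin ligase Rnf2 higher (0.38), and of the deacetylases Hdac1 rose (0.37) and Hdac2 fell (-0.20) in the knockout. Cbx3 did not pass in either comparison.

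Of 14 SIN3 corepressor genes, 7 were higher and 3 lower in 2i, and 2 rose and 3 fell in the knockout, where besides the deacetylases Rbbp7 rose (0.25) and Rbbp4 fell (-0.14). Over both directions these 10 and 5 of 14 genes are near or below the 72.4% and 45.3% of all genes. By direction, 50.0% were higher and 21.4% lower between media, against 37.1% and 35.3% of all genes. Sin3b, a scaffold that Mxd proteins bind, averaged 113.5 ± 7.95 FPKM in the knockout, 135.6 ± 13.8 in wild type in 2i and 103.6 ± 4.58 in FBS. It fell in the knockout (-0.25) and was higher in 2i than in FBS (0.38), and is named outside the rule, after its values were seen. Between media Rbbp7 (-0.66) and Suds3 (-0.56) were lower in 2i, and Sap30 (0.48) and Ncor1 (0.47) higher. Hdac1 did not pass between media, nor did Sap30 in the knockout. Without FBS replicate 3, 5 were lower. The count of rises in the knockout was 4 after quantile normalization or in the 8 libraries alone and 5 with array weights.

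Of 14 Myc coactivators, 4 were higher and 7 lower in 2i, with a median of -0.18, and 5 rose and 2 fell in the knockout, with a median of 0.09. Over both directions, 11 and 7 of 14 are near the 72.4% and 45.3% of all genes. By direction, 28.6% were higher and 50.0% lower between media, against 37.1% and 35.3% of all genes. In the knockout 35.7% rose and 14.3% fell, against 24.0% and 21.4%. The media did not overlap for 85.7% of these genes, against 62.5% of all genes. The ATPases Ruvbl1 (-0.92) and Ruvbl2 (-0.52) and the cofactor Hcfc1 (-0.51) were lower in 2i and Actl6a did not pass. In the knockout the Myc partner Zbtb17, also known as Miz1, fell (-0.39), while Ep400 (0.21) rose and Ruvbl2 did not pass, and 3 rose without replicate 4 of wild type in 2i or without knockout replicate 1 or 4. Of 14 genes of Myc protein turnover, 3 were higher and 8 lower in 2i, led by the ligase subunit Skp2 (-0.75), Btrc (0.93), the deubiquitinase Usp28 (-0.87) and Cip2a (-0.41), and these 11 of 14 are near the 72.4% of all genes. By direction, 21.4% of the turnover genes were higher and 57.1% lower, against 37.1% and 35.3% of all genes. In the knockout 5 rose (35.7%, against 24.0% of all genes) and 9 did not pass, with a median of 0.10. Over both directions 45.3% of all genes were called. Among the 5 were Btrc (0.34), Ppp2ca (0.13), Gsk3a (0.11) and Huwe1 (0.19), and Aurka did not pass in either comparison. The count of rises was 2 without replicate 1 or 4 of wild type in 2i or knockout replicate 1, 3 without knockout replicate 2, 3 or 4, and 8 after quantile normalization or with array weights, and 1 fell without replicate 2 of wild type in 2i.

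The parallel branch, in which Mlx takes the place of Max and senses glucose products with Mlxip or Mlxipl, held 5 tested genes. Of these 5, 2 rose and 3 did not pass in the knockout, where 45.3% of all genes were called over both directions. Between media 1 was higher and 3 were lower in 2i, where 72.4% of all genes were called. With 5 genes, these counts cannot be set apart from the shares of all genes. In the knockout Mlxip rose to 8.50 ± 0.599 FPKM, against 5.95 ± 0.570 in wild type (0.45), and its target Txnip to 69.1 ± 14.2 against 41.5 ± 16.9 (0.79), and only 1 of the 5 rose without knockout replicate 2. In 2i against FBS Mlxip (-0.53), Txnip (-1.18) and Mlx (-0.16) were lower and Mlxipl higher (0.54), and 2 were higher without replicate 3 of wild type in 2i, without FBS replicate 3, with array weights or with only the highest entry per gene. With a filter of 5 FPKM Mlxipl was not tested. Arrdc4 did not pass in either comparison.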

How the data were processed

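RNA-seq was made from mouse ESCs in 12 libraries. Trizol was used for RNA and TruSeq for libraries, per the labels' protocols. CASAVA 1.8.2, Cufflinks and build mm9 are named in the submitters' processing notes, and the aligner is not given in the sources used here. What the authors deposited are FPKM values with lower and upper bounds per RefSeq transcript, per the file headers, so read depth is unknown and no count test was used.

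Of 30761 entries, 98.8% were given a symbol from RefSeq (GRCm38.p6) and GENCODE vM21 tables. Entries were summed per symbol, and 7 symbols with a failed estimate were left out. Coordinates of genes are on mm9, 1-based, and promoter windows are on GRCm38.p6. The test covered genes that reached 1 FPKM in 4 or more libraries, on log2(FPKM + 1), with limma 3.58.1 in R 4.3.3, with 1 mean per group over all 12 libraries, eBayes with an intensity trend, and Benjamini-Hochberg adjustment over 12329 genes at 0.05. All 10 members passed the filter. Shares of entries were compared with exact two-sided permutation tests (scipy 1.17.1). The fits were tested on simulated data. Members and lists were chosen with earlier results of these data known. All members are described. From each list, up to 4 genes with the smallest adjusted p among those that passed, and the highest-expressed gene that did not, were named. A gene so chosen is not reported here. Alternatives were other pseudocounts, filters and scalings, the 8 libraries of a comparison alone, a replicate block, eBayes without trend, array weights, the highest entry per symbol, removal of the chromosome 6 offset, and leaving out each library.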

Additional observations from a re-analysis of the deposited data

Results flagged for a closer look

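The summed FPKM of Myc, Mycn and Mycl stood apart in 1 library. It was 44.4 in replicate 3 of wild type in 2i and 36.1 to 36.4 in the other 3 libraries of that group, a gap of 0.961 of the group's whole range, past Dixon's 95% critical value. This library had the highest Myc (6.82 FPKM) and Mycl (10.4 FPKM) and the lowest Mxd1 (1.73 FPKM) of its group. Of 39 groups of 4 values checked in this way it was the only one past the critical value, and chance alone passes about 1 in 20.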

How the results depend on the processing

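Of 496 values of single members under the alternatives, 487 kept their direction or stayed uncalled on the same side of the threshold. The 9 others are given with Max, Mxd1, Mxd4 and Mxi1. The rise of Myc in the knockout ranged from 0.44 to 0.67 (highest adjusted p = 0.0387) and that of Mnt from 0.28 to 0.36 (0.00699). Between media Mycn ranged from -1.93 to -1.84 and Myc from -1.53 to -1.27. No member fell in the knockout by limma (1, Mxd4, had an unadjusted p under 0.05, at 0.0281), whereas 1 fell after quantile normalization and without an intensity trend, and 0 to 1 when single libraries were left out. With a filter of 5 FPKM, 1 member was higher in 2i, since Mxd1 and Mxd4 were not tested there. Genes called ranged from 4057 to 7168 in the knockout and from 6453 to 11157 between media. The labels tie replicate numbers to no shared batch or day. Deviations of same-numbered libraries correlated at 0.06, 0.26, 0.22 and 0.19 between knockout and wild type and at 0.03, 0.12, 0.03 and 0.19 between media, so not every pair was over 0.1 and the numbers were not taken as pairs. Replicates 2, 3 and 4 of the knockout comparison, and 2 and 4 of the media, correlated best with their own number, a hint of pairing from the data and not from the design. With the number as a replicate block 5567 and 8899 genes were called, against 5589 and 8928, and no member's call changed. TPM scaling put the Myc-type sum at 116.3 in the knockout, 107.6 in wild type in 2i and 335.7 in FBS. Of 900 counts of calls in the pathway lists, 862 stayed within 1.5 times. Precision is limited by the unknown depth and, for Mxd4 and Mxd1, by low FPKM.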
